A study of Mus musculus with 2 samples.

Results

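The lysosome is the acidic compartment in which microglia, the macrophages that reside in brain and spinal cord, break down engulfed myelin, debris and their own worn-out organelles. A proton pump in its membrane, the V-ATPase, acidifies the lumen. The low pH activates proteases, chiefly cathepsins, and hydrolases that take apart sugars, lipids and proteins, while heavily glycosylated membrane proteins line the compartment and channels and transporters move ions and breakdown products across it. Many of the genes are known targets of the transcription factor TFEB, which binds E-box motifs and is held in the cytoplasm when the kinase complex mTORC1 is active. Loss of single members causes lysosomal storage disease.

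The transcripts of 39 lysosomal genes, chosen by symbol as 11 proteases, 13 hydrolases and their activators, 9 membrane proteins and regulators and 6 V-ATPase genes, were compared in 2 poly(A)-selected libraries of primary microglia. By their labels, the cells of the first library had received a control vector and those of the second a Per2-overexpression vector, Per2 being a repressor of the circadian clock. The labels give no further treatment, age or genotype, and not the number of animals or cultures behind each library. Each label has 1 library, so no value below has a replicate check, no test was possible, and every difference describes these 2 libraries only. Each of the 39 symbols matched exactly 1 of the 26607 rows of the table, and all 39 passed the filter of a mean of at least 1 FPKM (a level corrected for transcript length and for the mapped fragments of the library), as did 12369 rows in all.

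The labels of the libraries were not borne out by the transcript they name. Per2 itself had 6.90 FPKM under the control label and 0.927 FPKM under the Per2 label, so every direction below is a direction between labels. Whether this row counts transcript from the vector, and whether the labels are exchanged, was not tested. The labels give the organism as mouse, whereas the gene identifiers and the genome build named in the submitters' processing notes are rat. The depth of the libraries is unknown.

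Lysosomal transcripts were mostly somewhat lower in the Per2-labelled library, and nearly all by less than 2-fold. Of the 39 genes, 33 had a log2 ratio (Per2-labelled over control-labelled, on FPKM + 1) below 0 and 6 above 0, and 64.1% of all genes compared lay below 0. At least 2-fold lower was 1 gene, Ctsc, and at least 2-fold higher were 0 genes, beside 5.93% and 2.19% of all genes compared. The median log2 ratio was -0.40 for the 39 genes and -0.18 for all genes compared, and the 39 single ratios ran from -1.37 (Ctsc) to 0.31 (Smpd1). Among the 8079 genes whose mean reached 5 FPKM, a filter that all 39 members also pass, 58.9% lay below 0 and the median was -0.12. With the trend with transcript length described below removed in 2 ways, 27 genes stayed below 0 and 1 gene, Smpd1, stayed above 0, while 11 genes (Atp6v0d1, Cd63, Ctsd, Ctsh, Ctsk, Ctsl, Gaa, Lamp1, Mcoln1, Neu1 and Scarb2) changed side under at least 1 of them. Rescaling shifts all genes nearly alike, and it left 37 genes (TPM) or 27 genes (centring) below 0, beside 75.6% and 44.9% of all genes compared. In a bulk culture, fewer cells of a type and less RNA per cell cannot be told apart.

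As a share of the whole table, the 39 genes took 3.21% of the summed FPKM of the control-labelled library and 2.21% of that of the Per2-labelled library. The proteases alone took 1.63% and 1.14%. The summed FPKM of the 39 genes was 21189 under the control label and 16809.5 under the Per2 label. That of all rows was 659696 and 760286, so part of the lower share comes from the larger total. The order of levels was nearly the same in both libraries, with a Spearman rho of 0.98 across the 39 genes, which share the libraries and are not replicates. Ctsd, Ctsb and Cd63 ranked 13, 21 and 24 among all 26607 rows in the control-labelled library, and 18, 77 and 24 in the Per2-labelled library. Tfeb was the lowest member in both, at rank 6197 and 6564.

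**Figure D1:**
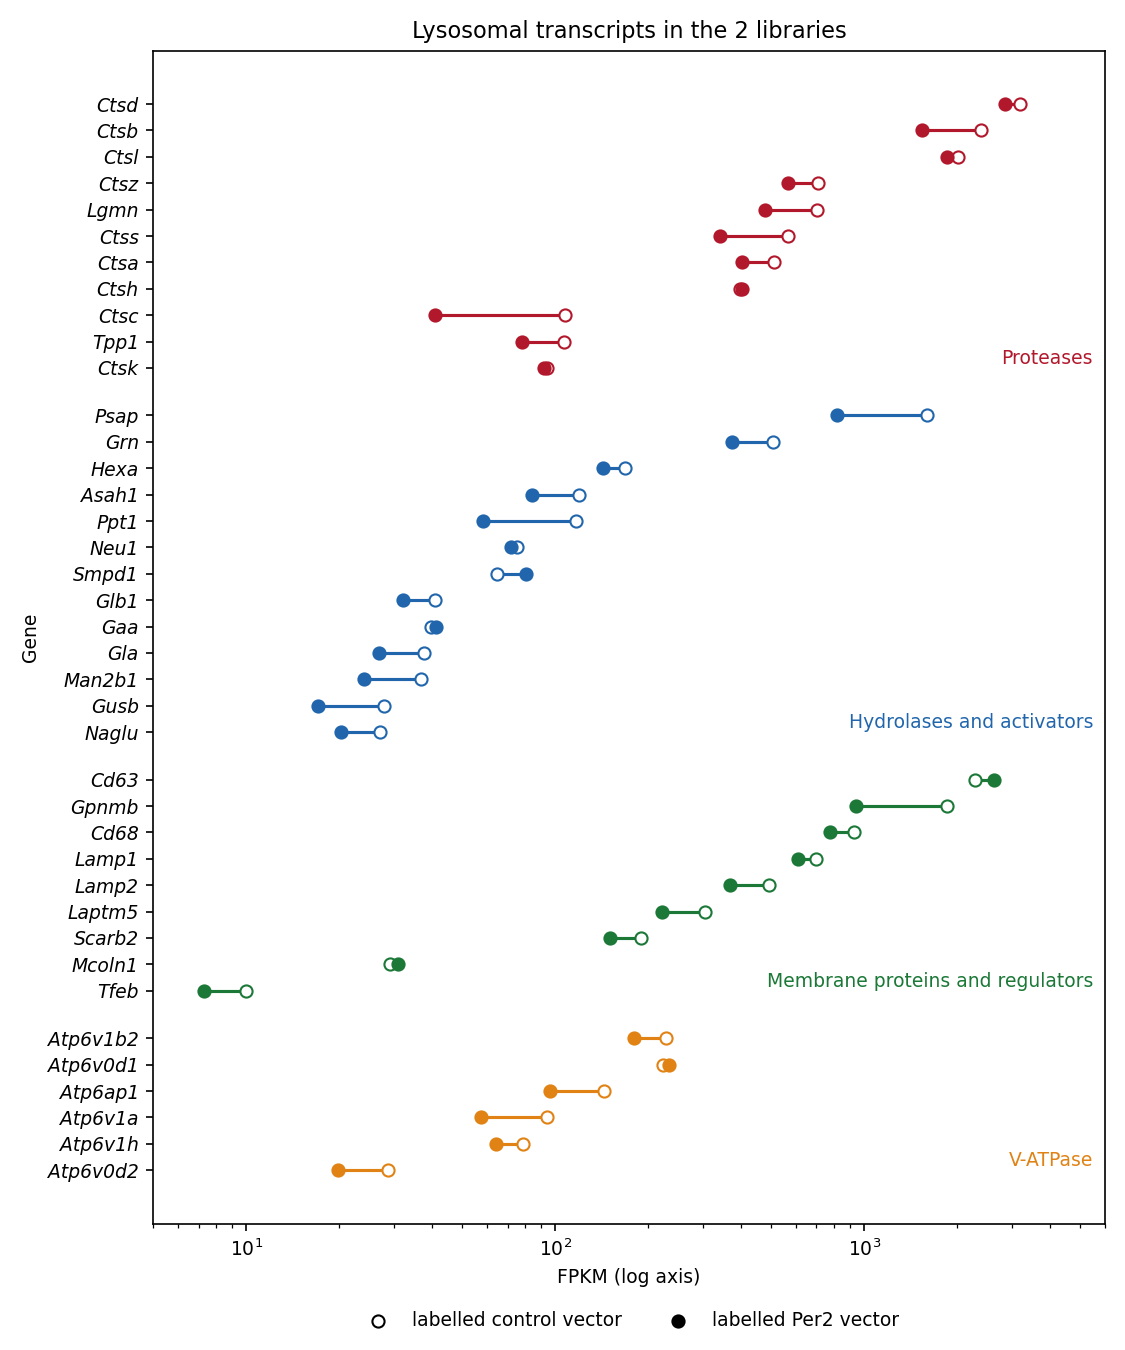
FPKM (log axis) of the 39 lysosomal genes by role, with open circles for the control-labelled library and filled circles for the Per2-labelled library, 1 library each. Filled circles lie left of open circles for 33 of the 39 genes, and the widest gap is that of Ctsc.

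The promoters of these genes are shown because E-boxes are the motif that TFEB and the clock factors CLOCK and BMAL1 are both known to bind. RefSeq promoters of the mouse build GRCm38.p6, from 250 bases before to 50 bases after the annotated start, matched 33 of the 39 symbols, and they are mouse sequences set beside values counted on a rat build. The E-box CACGTG, which reads the same on both strands, was found in 12 of these 33 promoters (36.4%), in 8.09% of the 27025 genes with a promoter, and in 12.1% of the 8088 of them that were among the genes compared. The extended form TCACGTGA, which contains the E-box, was found in 6 of the 33 (18.2%) and in 2.32% of the genes compared. A match is a description of the sequence and no evidence of binding.

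The 6 genes with the extended form are shown 5′ to 3′ on the gene's strand, with that form in capitals and 1 window of 30 bases each. For Ctsa, and for Lgmn named below, no mouse transcript start of the gene (GENCODE M21) was found in the promoter used.
Ctsd (chr7:142387908-142387937, minus strand): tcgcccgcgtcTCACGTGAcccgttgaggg
Ctsa (chr2:164833749-164833778, plus strand): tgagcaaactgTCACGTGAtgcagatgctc
Gla (chrX:134601182-134601211, minus strand): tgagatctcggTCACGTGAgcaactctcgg
Mcoln1 (chr8:3500462-3500491, plus strand): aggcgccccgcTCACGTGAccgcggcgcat
Atp6v1a (chr16:44139373-44139402, minus strand): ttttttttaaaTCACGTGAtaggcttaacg
Atp6v0d1 (chr8:105566050-105566079, minus strand): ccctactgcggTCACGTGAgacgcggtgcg
Lamp1 held 4 E-boxes, more than any other of the 33 promoters, in the 70 bases from 73 to 4 bases before its start, shown with each E-box in capitals.
Lamp1 (chr8:13159088-13159157, plus strand): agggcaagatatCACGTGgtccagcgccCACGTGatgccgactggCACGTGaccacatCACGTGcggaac

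The 12 genes with an E-box (the 7 above and Ctsl, Gaa, Glb1, Lgmn and Naglu) had log2 ratios from -0.69 (Atp6v1a) to 0.08 (Mcoln1), with a median of -0.26 and 9 of 12 below 0. The 21 genes whose promoter held none ran from -1.37 (Ctsc) to 0.31 (Smpd1), with a median of -0.44 and 19 of 21 below 0. The first range lies wholly inside the second. Ctsc, Gpnmb, Ppt1 and Psap, the 4 members with the lowest ratios, had a promoter without CACGTG in this window, as had most matched members (21 of 33). These 4 were picked by their values, and a link between motif and ratio was not tested.

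Among the proteases, the difference was uneven between members. Ctsc, which encodes cathepsin C, the dipeptidyl peptidase that activates granule serine proteases, had 107 FPKM under the control label and 40.9 FPKM under the Per2 label. Its log2 ratio of -1.37 was undercut by 2.05% of all genes compared. Ctss, cathepsin S, an elastase active at neutral pH that trims the invariant chain of MHC class II, had 567 FPKM against 342 FPKM, with the value of the control-labelled library given first from here on. Ctsb, cathepsin B, a cysteine protease of broad range, had 2385 against 1540.0 FPKM, and Lgmn, legumain, the asparaginyl endopeptidase that processes other cathepsins, had 702 against 476. These 4 were the proteases with the lowest log2 ratios, from -0.56 for Lgmn to -1.37 for Ctsc.

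The most abundant protease differed little. Ctsd, cathepsin D, the main aspartic protease, had 3190.4 against 2855 FPKM, a log2 ratio of -0.16 that lies close to the median of all genes. Ctsl, cathepsin L, had 2003 against 1848 FPKM, and Ctsk, cathepsin K, the collagenase best known from osteoclasts, had 94.0 against 91.6. Ctsh, cathepsin H, an aminopeptidase, had 396 against 402 FPKM and was the only protease with a log2 ratio above 0 (0.02), a sign that turned after rescaling to TPM and with either length correction. The direction of Ctsd, Ctsk and Ctsl also depended on the scaling or the length used.

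The remaining proteases lay between these. Ctsz, cathepsin Z, a carboxypeptidase, had 706 against 566 FPKM. Ctsa, cathepsin A or protective protein, which shields the sialidase Neu1 and the galactosidase Glb1 from degradation, had 512 against 403. Tpp1, tripeptidyl peptidase 1, whose loss causes a form of neuronal ceroid lipofuscinosis, had 106 against 78.0. In all, 10 of the 11 proteases (90.9%) had a log2 ratio below 0, with a median of -0.34. For the 9 cathepsins the count was 8 (88.9%) with a median of -0.32. Of all genes compared, 64.1% lay below 0 and the median was -0.18. Within a library, where FPKM can be compared between genes, Ctsb stood at 22.3 times the level of Ctsc under the control label and at 37.7 times under the Per2 label.

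Of the 8 glycosidases, 7 had a log2 ratio below 0 (87.5%, beside 64.1% of all genes compared) and 0 were past 2-fold. Their median was -0.37, beside -0.18. Gusb, beta-glucuronidase, had 27.9 against 17.0 FPKM (log2 ratio -0.68), the lowest ratio of the 8. Man2b1, lysosomal alpha-mannosidase, had 36.6 against 24.1 FPKM. Gla, alpha-galactosidase A, the enzyme lacking in Fabry disease, had 37.5 against 26.9. Naglu, which removes N-acetylglucosamine from heparan sulfate, had 27.0 against 20.2. Glb1, beta-galactosidase, had 40.7 against 32.1, and Hexa, the alpha subunit of hexosaminidase A, had 168 against 142. Neu1, the sialidase, and Gaa, the glycogen-degrading acid alpha-glucosidase, were nearly equal, with 75.1 against 71.7 and 39.6 against 41.2 FPKM.

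Genes that act on lipids and lipid-modified proteins held both the lowest and the highest log2 ratio of the hydrolases. Psap, prosaposin, the precursor of the saposins that present sphingolipids to their hydrolases, had 1591 against 815 FPKM. Ppt1, palmitoyl-protein thioesterase 1, which removes fatty acids from proteins, had 116 against 58.4 FPKM. Their log2 ratios of -0.96 and -0.98 lie just above the -1 that marks 2-fold, as does that of Gpnmb below, and Ctsc is the next below it. Asah1, acid ceramidase, had 119.6 against 84.3 FPKM. Smpd1, acid sphingomyelinase, which makes the ceramide that Asah1 cleaves, went the other way, with 64.9 against 80.5 FPKM and a log2 ratio of 0.31, above that of 82.2% of all genes compared. Grn, progranulin, a lysosomal chaperone that travels with prosaposin, had 505 against 373 FPKM, and the level of Psap was 3.15 times that of Grn under the control label and 2.19 times under the Per2 label.

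Membrane proteins ranged from an almost 2-fold lower to a slightly higher value. Gpnmb, a transmembrane glycoprotein of phagocytes that accompanies lysosomal and lipid stress, had 1854 against 938 FPKM (log2 ratio -0.98). Laptm5, a lysosomal protein of blood-derived cells that lowers surface receptor levels, had 305 against 221 FPKM. Lamp1 and Lamp2, the main glycoproteins of the limiting membrane, had 697 against 608 and 492 against 367. Cd68, the scavenger-like glycoprotein used to stain phagocytic microglia, had 923 against 774. Scarb2, which carries glucocerebrosidase to the lysosome, had 189 against 150.3.

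Cd63, a tetraspanin of late endosomes and exosomes, was the most abundant membrane gene, with 2275 against 2635 FPKM. Mcoln1, the calcium channel of the lysosomal membrane, had 29.1 against 30.9. The log2 ratios of both (0.21 and 0.08) lay above 0, but that of Mcoln1 was below 0 after rescaling to TPM and with the median-length correction, and that of Cd63 was -0.11 with the trend on the longest transcript removed. Tfeb, the transcription factor, had 9.94 against 7.26 FPKM. In all, 7 of these 9 genes lay below 0 (77.8%, beside 64.1% of all genes compared), with a median of -0.33 beside -0.18.

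Of the 6 V-ATPase genes, 5 lay below 0 (83.3%, beside 64.1% of all genes compared) and 0 were past 2-fold. Their median was -0.43, beside -0.18. Atp6v1a and Atp6v1b2, which form the ATP-cleaving ring, had 93.7 against 57.6 FPKM and 228 against 179. Atp6v1h, a regulatory subunit of the cytosolic sector, had 78.5 against 64.4. Atp6ap1, an accessory subunit needed for assembly, had 144 against 96.2. The d subunit, which couples the rotor, has 2 forms: the common Atp6v0d1 had 223 against 233 FPKM, and Atp6v0d2, known from osteoclasts and macrophages, had 28.8 against 19.8. The ratio of the common to the restricted form was thus 7.76 under the control label and 11.8 under the Per2 label. The log2 ratios of the 2 forms were 0.06 and -0.52. With the trend on the longest transcript removed they lay closer together, at -0.0008 and -0.34.

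Other V-ATPase subunits did not share the lower values. Of 16 measured further subunits and assembly genes, 7 lay below 0 and 9 above, 0 were past 2-fold, and the median was 0.12, which turned to -0.09 after rescaling to TPM. The 4 with the largest differences were Atp6v0b (444 against 640.0 FPKM) and Atp6v1f (244 against 348), which were higher, and Atp6v0a1 (65.0 against 43.2) and Atp6v0e2 (20.7 against 14.6), which were lower. Over all 22 measured V-ATPase genes, 12 lay below 0 and the median was -0.13. For the 21 with a length, the log2 ratio went with transcript length, with a Spearman rho of -0.79. With the length trend removed, Atp6v0b stood at 0.14, Atp6v1f at 0.003, Atp6v0a1 at -0.23 and Atp6v0e2 at -0.48. The median of the 21 was then -0.16. It was 0.003 for the 15 further genes with a length (7 below 0 and 8 above) and -0.26 for the 6 members (6 below 0).

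**Figure D2:**
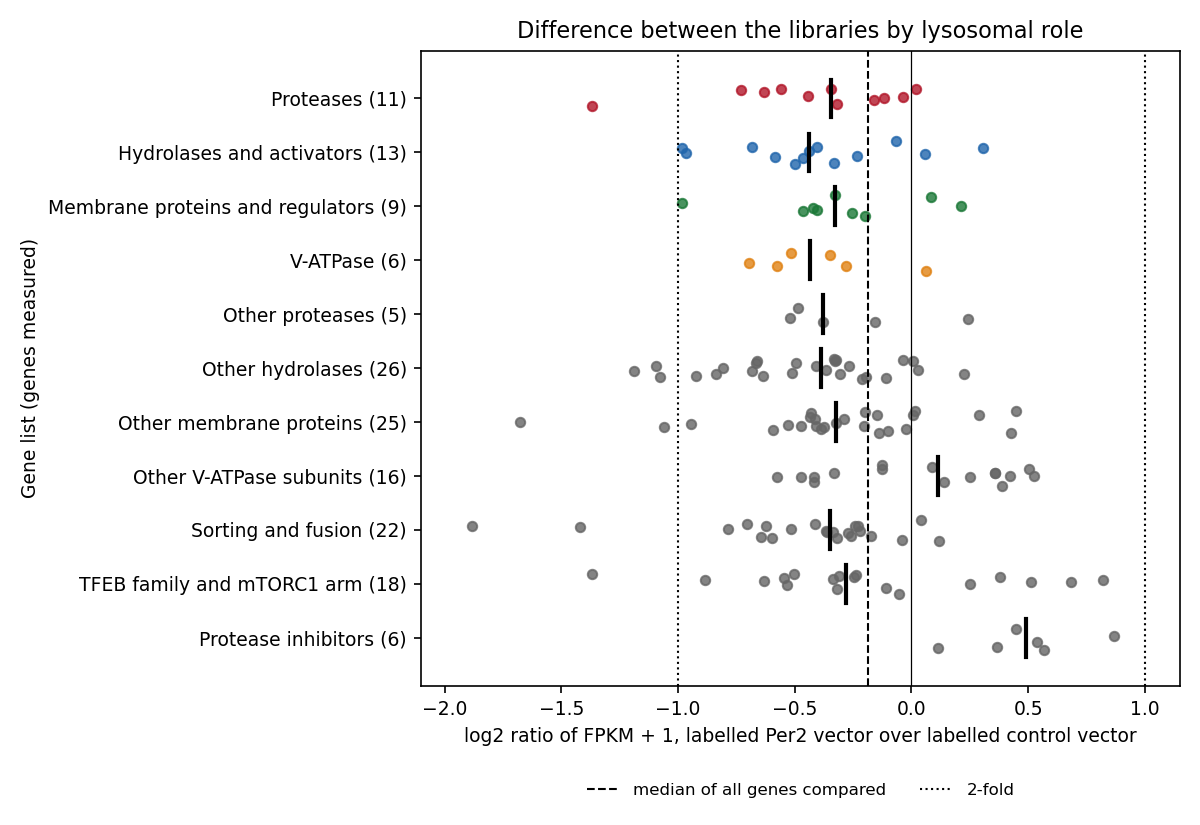
Log2 ratio of FPKM + 1 (Per2-labelled over control-labelled library, 1 library each) for the 4 groups of members, in colour, and 7 further lysosomal lists, in grey. Points are genes with vertical jitter only, black bars are list medians, the dashed line is the median of all genes compared (-0.18) and dotted lines mark 2-fold. Medians lie left of the dashed line for all lists but the other V-ATPase subunits and the protease inhibitors.

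Further genes of the lysosomal pathway were taken from 7 lists of 142 genes, of which 118 were measured. Their median log2 ratio was -0.31, with 87 below 0 (73.7%, beside 64.1% of all genes compared) and 31 above. Past 2-fold were 8 of the lower genes (6.78%, beside 5.93%) and 0 of the higher ones. With the length trend removed, 71 of 114 (62.3%) lay below 0, beside 50.7%. Other hydrolases had a median of -0.39 and 23 of 26 below 0 (88.5%, beside 64.1%). At least 2-fold lower were 3 of the 26 (11.5%, beside 5.93%). The 3 were Naaa, which cleaves fatty acid amides (51.4 against 21.97 FPKM), Idua, alpha-L-iduronidase (20.5 against 9.07), and Galc, the galactosylceramidase that breaks down myelin lipid (13.5 against 5.90). With the length trend removed, Naaa stayed past 2-fold (-1.03), whereas Idua (-0.79) and Galc (-0.74) did not. Of 5 measured other proteases, 4 lay below 0, among them Scpep1, a carboxypeptidase (136 against 94.8), Ctsf, cathepsin F (101.5 against 72.2), and Prcp, another carboxypeptidase (25.4 against 19.3), while Cpq, which cleaves dipeptides, had 21.7 against 25.9.

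Genes that deliver hydrolases to the lysosome included some of the lowest ratios. Of 22 measured sorting and fusion genes, 20 lay below 0 (90.9%, beside 64.1% of all genes compared), and the median was -0.35. At least 2-fold lower were 2 of them (9.09%, beside 5.93%). Vps41, part of the HOPS complex that fuses late endosomes with lysosomes, had 25.1 against 6.09 FPKM (log2 ratio -1.88). M6pr, the cation-dependent mannose 6-phosphate receptor that carries new hydrolases from the Golgi, had 50.7 against 18.3 (-1.42). Gnptab, which makes the mannose 6-phosphate tag, had 18.5 against 10.3, and Vps35, of the retromer that returns sorting receptors, had 75.3 against 45.8. With the length trend removed, Vps41 and M6pr stayed past 2-fold (-1.62 and -1.24). Of the 21 genes of the list with a length, 13 then lay below 0 (61.9%, beside 50.7%), and the median was -0.09.

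Of 25 measured other membrane proteins, 20 lay below 0 (80%, beside 64.1% of all genes compared), with a median of -0.32. At least 2-fold lower were 2 of them (8%, beside 5.93%). These were Clcn7, the chloride-proton exchanger of the lysosomal membrane (6.02 against 1.19 FPKM), and Mfsd8, a membrane protein lost in a ceroid lipofuscinosis (4.24 against 1.52). Ostm1, the partner subunit of Clcn7, had 18.3 against 11.8, and Mfsd12, which brings cysteine into lysosomes, had 6.10 against 2.69. With the length trend removed, 13 of the 25 lay below 0 (52%, beside 50.7%) and the median was -0.02, with Clcn7 still past 2-fold (-1.31).

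Of the relatives of Tfeb, Tfe3 and Tfec were lower, as Tfeb was, and Mitf was higher at a level close to the filter. Tfe3, a second factor that mTORC1 holds in the cytoplasm, had 8.68 against 2.75 FPKM (log2 ratio -1.37). It was the only gene past 2-fold among 18 measured regulators (5.56%, beside 5.93% of all genes compared that were lower by as much). Tfec, of the same family and more abundant, had 23.8 against 14.96 (named after its value was seen), and Mitf had 1.06 against 2.32. Fnip2, a partner of folliculin in amino acid sensing, had 3.48 against 1.43, and Lamtor4, of the Ragulator complex that anchors mTORC1, had 111 against 197. The list's median was -0.28 with 13 of 18 below 0 (72.2%, beside 64.1%). That median was -0.07 and 0.006 under the length corrections with the longest and the median transcript. With the longest transcript, Tfe3 stood at -1.08 and Mitf at 1.09, so both were then past 2-fold, in opposite directions.

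Natural inhibitors of proteases lay on the other side of 0 from most of the proteases. All 6 measured cystatins, serpins and other inhibitors had log2 ratios above 0, with a median of 0.49, and 0 were past 2-fold. They included Cstb, which blocks cathepsins in the cytosol (613 against 836 FPKM), Slpi, a secreted inhibitor of serine proteases (226 against 335), Serpinb1a (31.6 against 46.4) and Cst6 (5.65 against 11.1). Cst3, the abundant secreted cystatin C (named after its value was seen), had 2319.7 against 2511 FPKM, which was 0.973 times the level of Ctsb under the control label and 1.63 times under the Per2 label. With the trend on the longest transcript removed, 4 of the 6 lay above 0, and Cstb (-0.21) and Cst3 (-0.35) lay below it. Cst6 (1.22) was then past 2-fold. Ctsb stood at -0.23 under this correction, above Cst3, so the direction of the shift between these 2 genes turned.

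The ratio between the libraries also varied with transcript length across all genes. Over 10139 genes compared with a length, taken from the mouse gene of the same symbol, the Spearman rho between log2 ratio and length was -0.50, and over the 39 members it was -0.39. The members were somewhat shorter than genes at large, with a median longest transcript of 2474 nt against 3025 nt. After removal of the trend, 33 of the 39 again lay below 0, against 50.7% of all genes, and the median was -0.21 against -0.006. Members that changed side were Ctsh, Cd63 and Atp6v0d1, then below 0, and Ctsl, Neu1 and Scarb2, then above it. Ctsc (-1.11) stayed past 2-fold, and 2.40% of all genes did so in that direction. Next came Ctss (-0.91), Ppt1 (-0.83), Psap (-0.77), Gpnmb (-0.66) and Cd68 (-0.51), while Smpd1 (0.46), Gaa (0.37) and Ctsl (0.33) were highest. The value of Ctsl rests on a longest mouse transcript of 6168 nt, beside a median of 834 nt, and was -0.22 with the latter.

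**Figure D3:**
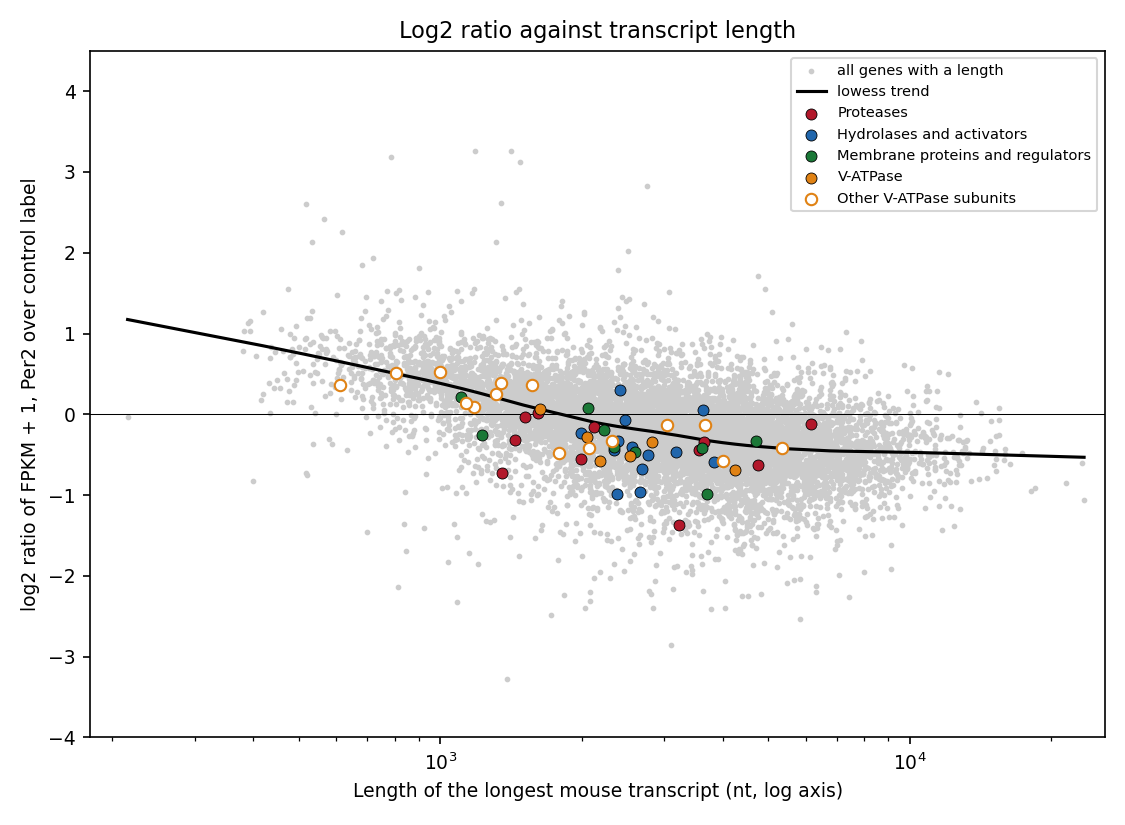
Log2 ratio of FPKM + 1 (Per2-labelled over control-labelled library) against the length of the longest mouse transcript (nt, log axis), with all genes with a length in grey, the lowess trend in black, members in colour and other V-ATPase subunits as open circles. Short V-ATPase subunits lie above 0 and follow the trend line, while most members lie below it.

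**Figure D4:**
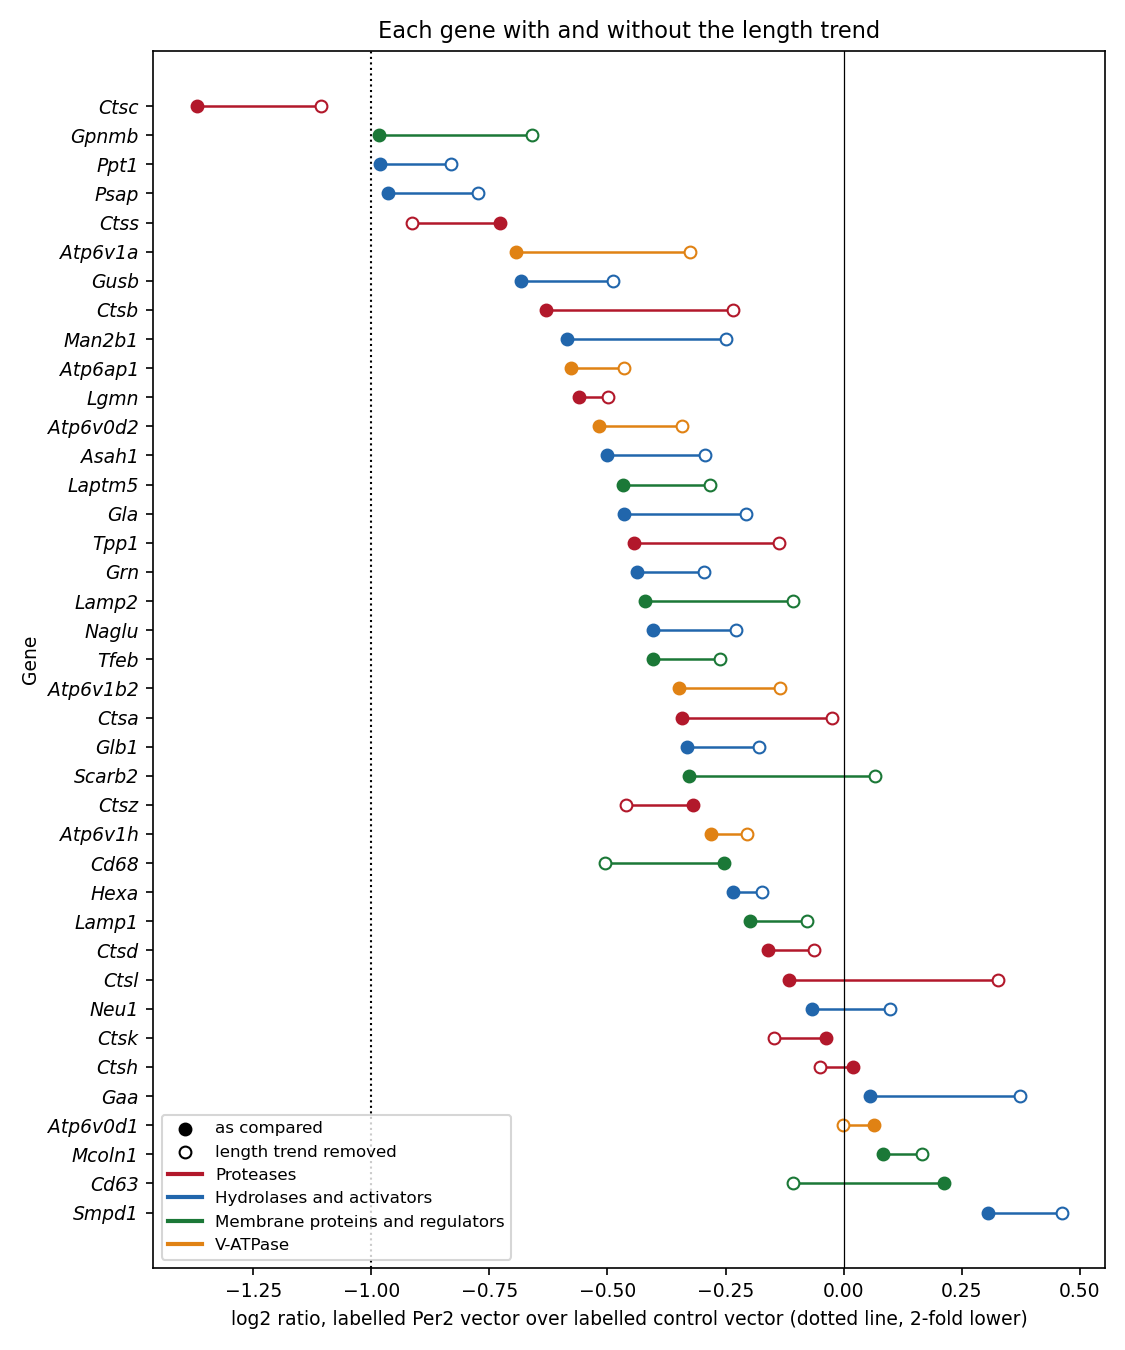
Log2 ratio of each of the 39 genes as compared (filled) and with the trend on longest transcript length removed (open), ordered by the first and coloured by role. Ctsc is left of the dotted line that marks 2-fold lower in both, at -1.37 and -1.11, and Smpd1 is furthest right in both, at 0.31 and 0.46.

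Markers of the cell types in the cultures also differed between the libraries, and their part in the lysosomal values was not tested. Of 16 measured microglia markers, 12 lay below 0 (75%, beside 64.1% of all genes compared) and 5 were at least 2-fold lower (31%, beside 5.93%). Their median was -0.36, while their summed level was 4466 against 4268 FPKM. The lowest ratios were those of C1qb (116 against 22.3 FPKM), Gpr34 (11.5 against 1.73), C1qc (99.0 against 26.6) and C1qa (257 against 71.6), and the 4 above 0 were Tyrobp (1076 against 1364), Fcer1g (1186 against 1248), Tmem119 (21.5 against 27.5) and Cd14 (575 against 593). The other defining genes Aif1 (579 against 491), Csf1r (51.5 against 21.7), Itgam (41.6 against 23.9) and Ptprc (19.3 against 10.8) were all lower, with P2ry12 at 0.650 against 0.0802, and Cx3cr1 and Siglech were listed at 0 in both libraries. All 10 measured astrocyte markers lay below 0 (summed level 439 against 198 FPKM), as did 6 of 7 oligodendrocyte (72.5 against 57.1) and 5 of 6 monocyte markers (1168 against 1332). Also below 0 were 6 of 9 fibroblast and pericyte (807 against 661), 3 of 4 neuron (40.1 against 27.4) and 2 of 3 endothelial markers (59.6 against 63.2). The fibroblast and pericyte share and the endothelial share (66.7% each) were close to the 64.1% of all genes compared. The monocyte sum was carried by S100a4 (831 against 1199), and without it the 5 remaining markers summed to 337 against 133 FPKM, with Cd163, Mrc1 and Clec4a3 at least 2-fold lower. With the trend on the longest transcript removed, 13 of the 16 microglia markers lay below 0 (median -0.45), beside 50.7% of all genes. Tyrobp (-0.32), Fcer1g (-0.52) and Cd14 (-0.02) were then below 0, and Tmem119 (0.46), Sall1 (0.11) and Spi1 (0.02) above it. Also below 0 were 8 of 10 astrocyte, 5 of 7 oligodendrocyte and 3 of 9 fibroblast and pericyte markers. So were 5 of 6 monocyte (S100a4 at -0.23), 3 of 4 neuron and 1 of 3 endothelial markers. The table does not assign transcripts to cells.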

How the data were processed

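The 2 libraries, 1 per label, were made from poly(A) RNA of cultured primary microglia. The authors deposited them as FPKM values in 1 table of genes by libraries. The submitters' processing notes name HISAT2, StringTie, DESeq2, edgeR and Rnor_6.0 without versions or roles. The protocol in the labels gives no strand-marking step, so it is unknown whether overlapping genes on opposite strands were told apart.

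Each column was assigned through the library name that the labels give. Of rows sharing a symbol, that with the higher mean was used. Log2 ratios were taken on FPKM + 1 for rows with a mean of at least 1 FPKM. With 1 library per group, a fixed size of 2-fold (an absolute log2 ratio of 1 or more) stood in for a test. FPKM keeps no depth, so no counting interval is given. For the length correction, residuals from a lowess fit (span 0.3, statsmodels 0.14.6) on log2 length of the longest protein-coding mouse transcript of the symbol (GENCODE M21) were used. A length was found for 82.0% of the genes compared and for all 39 members. The fit also recentres the ratios. Promoter sequences are RefSeq's (GRCm38.p6). Named genes were the 39 members, Per2, in each further list the 4 measured genes furthest from 0, and defining markers of cell types. The values of 1 gene so named are not reported here. The members and lists were chosen with earlier results of these data known. Alternatives were pseudocounts of 0.1 and 5, a filter at 5 FPKM or none, TPM rescaling (each library to the same sum), centring on the median ratio, summing rows that share a symbol, and the length correction. A correction on the median transcript length was added after seeing the data.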

Additional observations from a re-analysis of the deposited data

How the results depend on the processing

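Pseudocounts, filters and summed rows cannot change the side of 0 of a member. Under TPM rescaling, centring and both length corrections the median of the 39 genes stayed below 0. Its distance to the median of all genes was -0.22 as reported and, by construction, after centring. It was -0.40 with no filter, -0.29 with a filter at 5 FPKM, -0.23 after TPM rescaling, and -0.20 and -0.19 with the longest and median length corrections. With no filter the median of all 26607 rows, most of them under 1 FPKM, was 0. TPM rescaling moved the median of all genes to -0.37 and centring to 0.06. Members at least 2-fold lower were 4 after TPM rescaling (Ctsc, Psap, Ppt1 and Gpnmb), 2 with the median-length correction (Ctsc and Ppt1) and 1 (Ctsc) in the other settings. Among all genes compared, 11.3% were at least 2-fold lower after TPM rescaling and 2.86% with the median-length correction. In the other settings that share ran from 1.33% (pseudocount of 5) to 10.5% (pseudocount of 0.1). After TPM rescaling the medians were -0.61 for all members, -0.55 for proteases, -0.64 for hydrolases, -0.53 for membrane proteins and -0.64 for V-ATPase genes. After centring they were -0.16, -0.10, -0.20, -0.086 and -0.19, with the longest-length correction -0.21, -0.15, -0.23, -0.11 and -0.26, and with the median-length correction -0.19, -0.22, -0.19, -0.19 and -0.32. Members below 0 were 37 after TPM rescaling, 27 after centring and 31 with the median-length correction. The shares of all genes compared were 75.6%, 44.9% and 49.9%. Genes of the further lists at least 2-fold lower were 3 with a pseudocount of 5, 13 after TPM rescaling, 4 after centring and 5 with the longest-length correction, against 8. They were counted among 118 genes, or 114 with a length. The shares of all genes compared were 1.33%, 11.3%, 2.93% and 2.40% in the same order, against 5.93%. The median of the other V-ATPase subunits turned to -0.089 after TPM rescaling and that of the regulators to 0.0062 with the median-length correction. The cause of these changes was not tested beyond what each setting does by construction. No paired analysis was possible because each group has 1 library, and for the same reason no library could be left out. The depth is unknown, so no difference can be set against counting error.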
